A study of Mus musculus with 9 samples.

Results

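The 10 genes described here carry out or control de novo lipogenesis, the making of fatty acids from sugar carbon: Srebf1, Acly, Acaca, Acacb, Fasn, Scd1, Elovl6, Me1, Thrsp and Pnpla3. They were chosen by gene symbol from a table of 24532 mouse genes. All 10 were found and all 10 passed the filter on low counts, which left 14731 genes for testing. The samples are 9 liver RNA libraries from wild-type C57BL/6 mice, 3 in each of 3 groups. Every mouse received intraperitoneal thioacetamide (TAA), a liver toxin that causes fibrosis, at a rising dose for 10 weeks. Controls were injected with normal saline (group TAA10w, replicates 12, 13 and 14, called TAA). The treated groups were given rhCYGB, which is recombinant human cytoglobin, a globin of stellate cells, into the tail vein at 2 mg/kg, during the last 2 weeks (TAArhCY2, replicates 17, 18 and 19) or the last 5 weeks (TAArhCY5, replicates 23, 27 and 28) of TAA. Livers were taken 2 days after the final rhCYGB dose. Livers without TAA were not analysed here. The labels used here give no sex, age or feeding state.

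In liver, citrate leaving the mitochondrion is split by ATP citrate lyase (Acly) into acetyl-CoA. Acetyl-CoA carboxylases (Acaca in the cytosol, Acacb at the mitochondrial surface) turn it into malonyl-CoA, and fatty acid synthase (Fasn) builds palmitate from both, using NADPH that malic enzyme (Me1) helps to supply. Elovl6 lengthens palmitate and Scd1 desaturates the products. Srebf1 encodes SREBP-1, the factor through which insulin raises most of these genes. Mlxipl encodes ChREBP, which does the same in response to sugar. Thrsp (Spot 14) is a small acidic protein that supports lipogenesis. Pnpla3 is a lipid droplet protein whose gene is a target of SREBP-1.

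Promoter sequences are shown for some of the genes: Srebf1, because its starts decide what its count holds, Fasn, Thrsp, and Pnpla3, which stood lower at 5 weeks. Fasn and Thrsp were both highest of their group in replicates 12 and 18, but so were Acaca, Acacb, Elovl6 and Pnpla3. Each is the 250 bases before a transcript start, 5′ to 3′ on the gene's strand, from RefSeq's promoter table for GRCm38.p6, the same assembly as mm10. Capitals mark the letters TCACCC (the core of an SREBP site) and CCAAT (the box bound by NF-Y), searched on both strands, so GGGTGA and ATTGG also count.

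Srebf1, downstream start, chr11:60210472-60210721, minus strand: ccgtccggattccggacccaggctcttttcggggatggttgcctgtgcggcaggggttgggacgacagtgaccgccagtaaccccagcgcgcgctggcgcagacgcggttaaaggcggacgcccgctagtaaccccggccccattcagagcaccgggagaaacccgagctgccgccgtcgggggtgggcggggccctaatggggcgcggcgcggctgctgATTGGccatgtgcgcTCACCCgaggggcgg
Srebf1, upstream start, chr11:60220628-60220877, minus strand: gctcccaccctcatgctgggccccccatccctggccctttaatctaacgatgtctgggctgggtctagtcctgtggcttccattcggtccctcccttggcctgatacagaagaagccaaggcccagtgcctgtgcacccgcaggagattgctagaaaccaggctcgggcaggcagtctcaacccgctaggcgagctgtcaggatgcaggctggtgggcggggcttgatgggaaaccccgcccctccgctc
Fasn, chr11:120824548-120824797, minus strand: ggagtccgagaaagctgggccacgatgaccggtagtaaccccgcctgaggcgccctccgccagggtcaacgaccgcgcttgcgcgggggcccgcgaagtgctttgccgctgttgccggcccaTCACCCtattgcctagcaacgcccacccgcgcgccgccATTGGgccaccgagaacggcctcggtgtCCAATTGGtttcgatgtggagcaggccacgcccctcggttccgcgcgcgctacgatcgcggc
Thrsp, chr7:97417551-97417800, minus strand: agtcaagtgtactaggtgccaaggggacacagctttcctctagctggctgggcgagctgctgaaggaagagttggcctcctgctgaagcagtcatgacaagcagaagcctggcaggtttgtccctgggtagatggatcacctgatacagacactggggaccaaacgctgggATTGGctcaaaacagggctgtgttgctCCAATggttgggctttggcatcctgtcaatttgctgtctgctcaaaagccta
Pnpla3, chr15:84167566-84167815, plus strand: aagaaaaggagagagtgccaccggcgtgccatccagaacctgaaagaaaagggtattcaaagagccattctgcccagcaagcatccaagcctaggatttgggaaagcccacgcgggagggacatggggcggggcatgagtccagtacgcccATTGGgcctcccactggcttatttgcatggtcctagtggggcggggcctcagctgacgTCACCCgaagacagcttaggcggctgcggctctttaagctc

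The Srebf1 window at the downstream start holds TCACCC 15 bases and CCAAT 30 bases before the start, while the window at the upstream start holds neither. RefSeq lists a start further upstream, whose window (chr11:60222582-60222831, not printed) holds CCAAT 166 bases before the start and no TCACCC. Fasn has 3 CCAAT matches, 2 of them overlapping, and Thrsp has 2. Pnpla3 has 1 of each motif. The windows of Acly, Acaca and Elovl6, not printed, hold neither. Windows were found for 9 of the 10 genes, all but Scd1, and numbered 12. TCACCC stood in 4 of these 12 windows, against 13.8% of all 32851 windows of the same length, and CCAAT in 7 of 12, against 33.8%. The full SREBP site TCACNCCAC and the E-box CACGTG stood in none of the 12, against 1.05% and 6.02% of all windows. These matches describe letters and are not shown to be bound, and their relation to the levels of the genes was not tested.

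Those starts matter for Srebf1 (gene ID 20787, mm10 chromosome 11, 60199084 to 60220627). As background, the gene makes SREBP-1a from an upstream start and SREBP-1c, the main form of liver, from an internal start downstream of it. Both Srebf1 transcript models in the deposited table begin at 60220627, the upstream start. Reads of both forms therefore enter 1 gene count, and the forms cannot be told apart here. The locus also overlaps Rai1 and 2 microRNA genes, and reads from a shared stretch cannot be assigned to 1 gene without strand. Acly, Me1 and Pnpla3 each overlap 1 other gene, and the remaining 6 overlap none.

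Levels between genes were compared as FPKM, which divides by transcript length. Scd1 (chromosome 19, 44394450 to 44407709) was the most abundant, with a median of 1013 FPKM over the 9 libraries (range 629.5 to 1597). Thrsp (chromosome 7, 97412933 to 97417550) followed at 121.4 FPKM (60.98 to 252.3). Then came Me1 (chromosome 9, 86581363 to 86695914) at 61.57, Srebf1 at 50.57, Acly (chromosome 11, 100476352 to 100528000) at 37.52 and Fasn (chromosome 11, 120805958 to 120824547) at 34.72 FPKM. The ranges of neighbours in that order overlapped from Thrsp to Fasn. Below Fasn, with no overlap, stood Acaca (chromosome 11, 84195438 to 84401651) at 11.66 and Elovl6 (chromosome 3, 129532386 to 129638493) at 11.21 FPKM, whose ranges overlapped. Acacb (chromosome 5, 114165518 to 114250758) at 4.450 and Pnpla3 (chromosome 15, 84167816 to 84189521) at 1.045 FPKM were lowest, each apart from its neighbour.

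The 9 libraries held 55655727 to 87289945 estimated reads, a 1.57-fold range, the deepest being replicate 18. Replicates 17, 18 and 23 stood furthest out on the first principal component. Hepatocyte markers were high in every library (values below), and the summed level of 9 stellate cell and myofibroblast markers was 1253 to 1919 CPM (counts scaled to library size, as below) in TAA, 452 to 839 at 2 weeks and 327 to 744 at 5 weeks. Most of the TAA sum came from Col1a1, Col1a2 and Col3a1 (462.3, 429.8 and 675.7 CPM in replicate 12). All 9 markers had log2 changes below 0 at both times. Dcn (-0.24 ± 0.20 and -0.13 ± 0.20) and Lrat (-0.42 ± 0.27 and -0.16 ± 0.27) overlapped TAA at 2 and 5 weeks, and Des at 2 weeks (-0.08 ± 0.32). In whole tissue, fewer cells of a type and less RNA per cell cannot be told apart. Over the tested genes, as a description only, Spearman's rho between the log2 change and transcript length was -0.42 at 2 weeks and 0.05 at 5 weeks against TAA, and 0.47 for 5 against 2 weeks. The 10 genes have a median length of 4743 bases against 2747 for all tested genes. With the length trend removed their median log2 change was 0.57, 0.08 and -0.32 in these comparisons, in place of 0.37, 0.16 and -0.09. Scaling by library totals in place of TMM shifted the all-gene median of the log2 change from -0.03 to -0.36 at 2 weeks and from 0.01 to -0.21 at 5 weeks, and that of the 10 genes from 0.37 to 0.06 and from 0.16 to -0.04. Each sample has a number of its own, but the labels do not state that each is a separate mouse, so a p-value here reflects only how these samples varied.

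Comparing rhCYGB 2 weeks with TAA asks what a short course did to the fat-making program of the injured liver. No lipogenic gene passed the test. Levels of 7 of the 10 were above TAA and 3 below, with a median log2 change of 0.37 against -0.03 over all tested genes. The 12 hepatocyte markers described below had a similar median, 0.34, so a shift of this size was not particular to lipogenic genes. With p-values adjusted by Benjamini-Hochberg, the quasi-likelihood test of edgeR called 0 of the 10 at an adjusted p under 0.05, while it called 3.31% of all tested genes. DESeq2 also called 0, against 11.6% of all genes, and 1 of the 10 (Me1) had an unadjusted p under 0.05, against 23.4% of all genes.

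Levels are given from here as CPM, the share of a library's counts scaled up to a common total with TMM factors, in replicate order. Srebf1, the transcription factor, was at 296.1, 205.3 and 200.7 CPM in TAA and at 106.3, 122.3 and 230.0 CPM at 2 weeks. Replicates 17 and 18 lay below every TAA library and replicate 19 lay among them, so the groups overlapped. The log2 change was -0.61 ± 0.37 (SE, n = 3 per group, adjusted p = 0.332 by edgeR, 95% interval -1.44 to 0.21).

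Acly, the enzyme that opens the pathway, was likewise at 95.76, 156.2 and 173.9 CPM against 256.5, 198.8 and 155.5 CPM in TAA. Only replicate 17 lay below all TAA libraries. Its change was -0.52 ± 0.28 (adjusted p = 0.278 by edgeR). The table splits Acly into 2 transcript variants, and the longer one took 28.6%, 30.9% and 38.3% of the gene's reads in TAA, 36.9%, 33.1% and 33.2% at 2 weeks and 32.6%, 39.5% and 32.6% at 5 weeks, with all groups overlapping.

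The enzymes downstream of Acly had positive estimates. Fasn was at 484.4, 222.1 and 317.7 CPM in TAA and at 321.6, 671.2 and 390.8 CPM at 2 weeks (log2 change 0.43 ± 0.32, edgeR adjusted p = 0.422). Replicate 18 was the high library, and the change was 0.06 without it and 0.76 without TAA replicate 12. Acaca was at 118.3, 88.15 and 89.59 CPM against 106.2, 145.7 and 110.7 CPM (0.29 ± 0.16, adjusted p = 0.303). Here too only replicate 18 lay above all TAA libraries.

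Acacb spanned 24.12 to 56 CPM in TAA and 39.73 to 67.19 CPM at 2 weeks (0.49 ± 0.34, edgeR adjusted p = 0.402). Its change was 0.94 without TAA replicate 12 and 0.22 without replicate 18. Elovl6 spanned 45.58 to 79.39 and 59.35 to 100.9 CPM (0.42 ± 0.25, adjusted p = 0.337), with 0.71 and 0.17 in the same 2 settings. Scd1, with 3115 to 5693 CPM in TAA and 3975 to 6534 CPM at 2 weeks, had an estimate of 0.33 ± 0.33 (adjusted p = 0.553), which was 0.59 without TAA replicate 12 and 0.15 without TAA replicate 14. In each of these 3 genes the groups overlapped.

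Me1 was the 1 member whose 2-week libraries lay apart from TAA. It stood at 155.2, 172.4 and 148.2 CPM in TAA and at 195.5, 238.7 and 239.0 CPM at 2 weeks. All 3 treated libraries were higher, as they were for 17.3% of all tested genes. The change was 0.50 ± 0.17 (95% interval 0.13 to 0.88, edgeR adjusted p = 0.119), which did not pass. It passed with the trend over transcript length removed (0.60, adjusted p = 0.0449) and without 5-week replicate 27 (0.50, adjusted p = 0.0462), and was 0.17 with libraries scaled by totals alone (adjusted p = 0.550).

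Thrsp had the largest estimate and the widest spread of the 10. It was at 201.5, 61.62 and 60.60 CPM in TAA and at 107.6, 312.8 and 226.0 CPM at 2 weeks. TAA replicate 12 lay among the treated libraries, and the other two TAA libraries lay below all of them. The change was 1.00 ± 0.49 (95% interval -0.10 to 2.1, edgeR adjusted p = 0.250), 1.81 without TAA replicate 12 and 0.63 without replicate 18.

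Pnpla3 was at 8.353, 4.187 and 6.703 CPM in TAA and at 6.819, 7.728 and 4.143 CPM at 2 weeks. These ranges nearly coincided, and the change was -0.04 ± 0.36 (95% interval -0.84 to 0.76, adjusted p = 0.955 by edgeR).

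**Figure D1:**
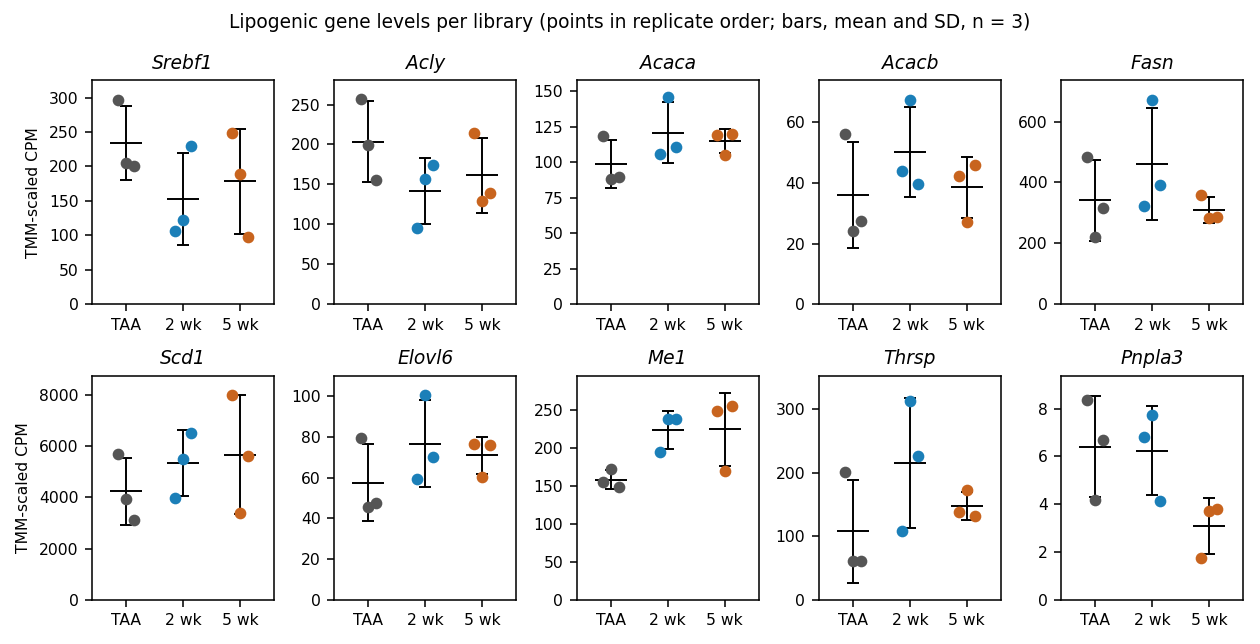
TMM-scaled CPM (vertical axes, from 0) of the 10 lipogenic genes in each of the 9 libraries, as points by group in replicate order, with the mean and SD of each group of 3 as bars. Me1 at 2 weeks (195.5 to 239.0 CPM) lies above TAA (148.2 to 172.4), Pnpla3 at 5 weeks (1.728 to 3.791) lies below TAA (4.187 to 8.353), and most other groups overlap.

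The 5-week group put the same question to a longer treatment. Again no lipogenic gene passed: edgeR called 0 of the 10, against 1.29% of all tested genes, and 2 of the 10 (Me1 and Pnpla3) had an unadjusted p under 0.05, against 19.2% of all genes. DESeq2 called 1, Pnpla3, against 8.06% of all genes. Estimates were above 0 for 6 and below for 4, with a median log2 change of 0.16 against 0.01 over all tested genes. Over the 12 hepatocyte markers the median was 0.28. The 2 comparisons with TAA share the 3 TAA libraries.

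Pnpla3, the lipid droplet protein, gave the largest difference at 5 weeks. It was at 1.728, 3.710 and 3.791 CPM, against 8.353, 4.187 and 6.703 CPM in TAA. All 3 treated libraries lay below all TAA libraries, as they did for 13.4% of all tested genes. The change was -1.06 ± 0.37 (95% interval -1.88 to -0.24, edgeR adjusted p = 0.160, DESeq2 adjusted p = 0.0493). It was -0.79 without replicate 23, the lowest library, and -1.31 without TAA replicate 13.

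Me1 was at 249.0, 169.9 and 256.0 CPM at 5 weeks. Replicate 27 lay within the TAA range of 148.2 to 172.4 CPM, and the other two lay above it. The change, 0.50 ± 0.17 (95% interval 0.13 to 0.88, edgeR adjusted p = 0.150), was 0.67 without replicate 27 (adjusted p = 0.0458).

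Srebf1 was at 249.2, 188.5 and 97.21 CPM at 5 weeks, a 2.56-fold spread within the group. Only replicates 27 and 28 lay below all TAA libraries. Its change of -0.39 ± 0.37 (edgeR adjusted p = 0.607) was -0.73 without replicate 23 and -0.10 without replicate 28. Acly stood at 214.6, 129.3 and 139.8 CPM (-0.34 ± 0.27, adjusted p = 0.547), and at -0.61 without replicate 23 and -0.13 without TAA replicate 12.

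Scd1 was at 8018, 3378 and 5622 CPM at 5 weeks. Replicate 23 held the highest Scd1 level of all 9 libraries, while replicate 27 lay in the lower part of the TAA range. The change was 0.42 ± 0.33 (edgeR adjusted p = 0.522), 0.07 without replicate 23 and 0.69 without TAA replicate 12.

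Fasn was at 358.1, 284.1 and 286.8 CPM, within the TAA range throughout (-0.14 ± 0.32, edgeR adjusted p = 0.855), and its estimate was 0.19 without TAA replicate 12. Acaca spanned 105.1 to 120.3 CPM (0.22 ± 0.16, adjusted p = 0.501, and 0.37 without TAA replicate 12). Acacb spanned 27.21 to 45.89 CPM (0.10 ± 0.34, adjusted p = 0.908, from -0.13 without TAA replicate 13 to 0.57 without 12). Elovl6 spanned 60.58 to 76.73 CPM (0.31 ± 0.25, adjusted p = 0.552, from 0.15 to 0.61 in the same settings).

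Thrsp at 5 weeks was at 138.7, 172.4 and 131.0 CPM, a narrow range between the low TAA libraries 13 and 14 and the high TAA library 12. Its change was 0.45 ± 0.49 (edgeR adjusted p = 0.665), 1.26 without TAA replicate 12 and 0.16 without TAA replicate 13.

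**Figure D2:**
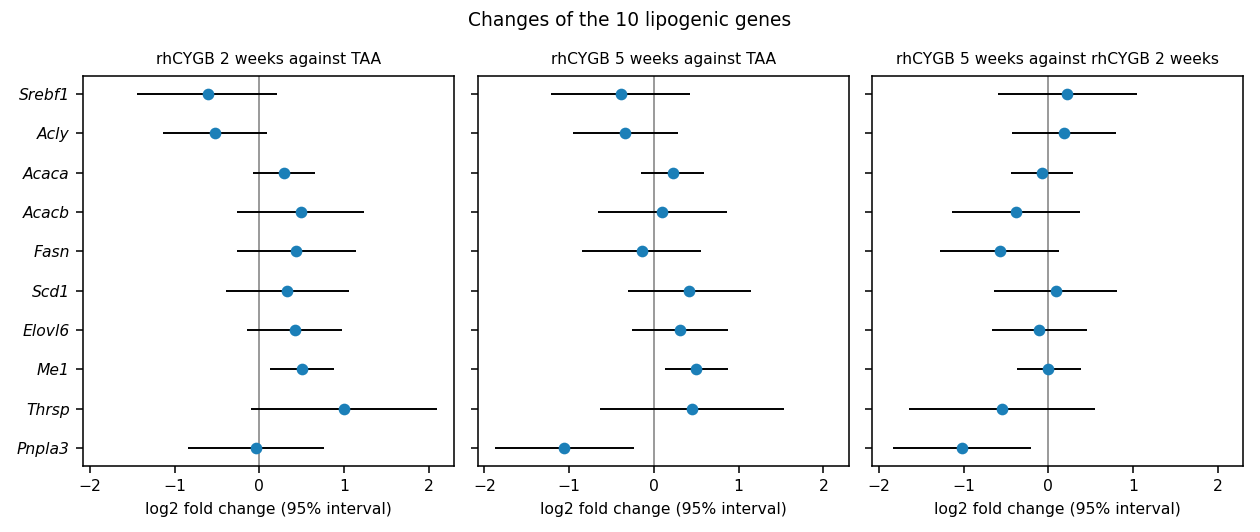
Log2 fold change of each gene (points, horizontal axis) with its 95% interval (lines) in the 3 comparisons, 3 libraries per group. Only the intervals of Me1 against TAA (0.13 to 0.88 at both times) and of Pnpla3 at 5 weeks against TAA (-1.88 to -0.24) and against 2 weeks (-1.84 to -0.20) leave out 0, before any adjustment for the number of genes.

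Comparing 5 weeks with 2 weeks tests directly whether the courses differed. edgeR called 0 of the 10 genes, against 0.0204% of all tested genes. DESeq2 also called 0, against 5.35% of all genes. Only Pnpla3 had an unadjusted p under 0.05, as 23.2% of all genes did. It was lower at 5 weeks by a log2 change of -1.02 ± 0.37 (edgeR adjusted p = 0.180), and -0.74 without replicate 23. Its groups did not overlap, as for 10.2% of genes in that direction, but the gap was narrow, with 4.143 CPM in replicate 19 at 2 weeks and 3.791 in replicate 28 at 5 weeks. Fasn was at -0.57 ± 0.32 (adjusted p = 0.281) and Thrsp at -0.55 ± 0.49 (adjusted p = 0.493), and at -0.20 and -0.18 without replicate 18. With the length trend removed 9 of the 10 estimates were below 0, Fasn being at -0.92 (adjusted p = 0.186), and edgeR still called 0. Me1 was at 0.00 ± 0.17, with a 95% interval from -0.37 to 0.38.

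Within groups, single libraries stood high or low across many of the 10 genes. TAA replicate 12 was the highest TAA library for 9 of the 10, all but Me1. At 2 weeks replicate 18 was highest for 6 (Acaca, Acacb, Fasn, Elovl6, Thrsp and Pnpla3), and replicate 17 lowest for 8. At 5 weeks replicate 27 was lowest for 7. Measured against the TAA mean, the median log2 difference over the 10 genes was 0.45, -0.23 and -0.21 in TAA, 0.11, 0.58 and 0.26 at 2 weeks and 0.32, -0.24 and 0.37 at 5 weeks. Among the 10 genes the fold range over all 9 libraries was smallest for Acaca (1.65) and Me1 (1.73) and largest for Pnpla3 (4.83) and Thrsp (5.16). Of the factors that drive the program, Mlxipl (ChREBP) was also highest in TAA replicate 12 (185.2 CPM against 87.81 and 94.72) and, at 2 weeks, in replicate 18 (202.4 CPM against 179.1 and 146.3). Insig1, a target of SREBP, was at 327.0 CPM in TAA replicate 12 against 150.0 and 170.0 CPM, but at 2 weeks it was highest in replicate 19 (237.3 CPM against 208.9 in 18). Not all regulators shared the pattern. Srebf1 itself was highest at 2 weeks in replicate 19 (230 CPM against 106.3 in 17 and 122.3 in 18). In TAA replicate 12 Insig2 was lowest (76.2 CPM against 100.6 and 96.22) and Nr1h3 was level with the other libraries (83.38 CPM against 84.97 and 84.12), both described below. The part of feeding, depth or any other property of these libraries in this pattern was not tested.

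**Figure D3:**
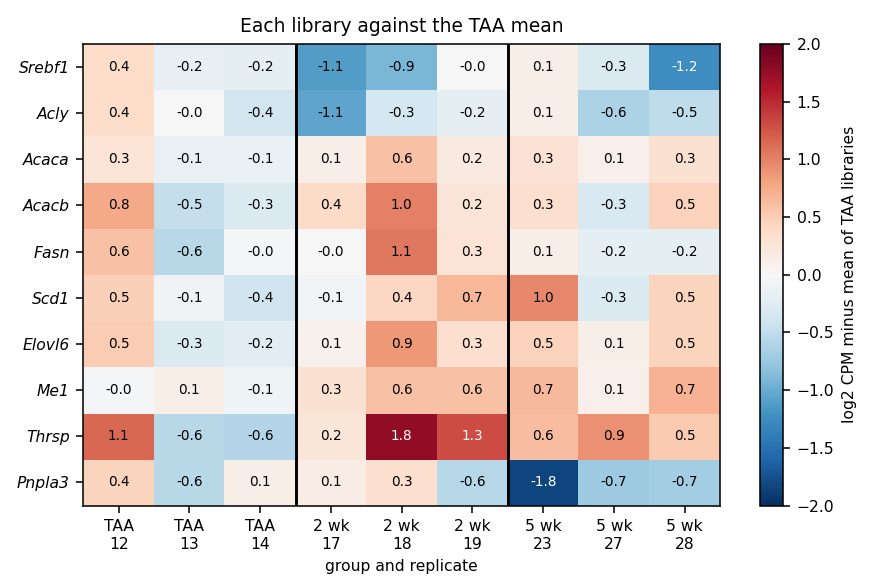
Log2 CPM of each gene (rows) in each library (columns, by group and replicate) minus its mean over the 3 TAA libraries, with red above and blue below. TAA replicate 12 and 2-week replicate 18 are red for most genes (Thrsp 1.15 and 1.78), Srebf1 is blue in replicates 17, 18 and 28 (-1.11, -0.91 and -1.24), and Pnpla3 is blue in all 5-week libraries (-1.84, -0.73 and -0.70).

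Srebf1 had a negative estimate where most of its target genes had a positive one. A ratio of reads within 1 library does not depend on how libraries are scaled, so the reads of the other 9 genes were also counted per Srebf1 read. These ratios were formed after the levels had been seen. All 9 divide by the same Srebf1 count, already seen to be low in some treated libraries, so they are not 9 separate results. At 2 weeks 6 of 9 ratios were higher than in TAA with no overlap, against 17.4% of all tested genes, and at 5 weeks 3 of 9 (Acaca, Elovl6 and Me1), against 13.1%. None of the 9 was lower without overlap at either time, against 0.747% of genes at 2 weeks and 0.713% at 5 weeks. With shares that small, the lack of such a ratio among 9 carries no weight. Over all genes too, ratios to Srebf1 were far more often higher than lower without overlap.

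For Acaca the ratio was 0.400, 0.429 and 0.446 reads per Srebf1 read in TAA, 0.999, 1.19 and 0.482 at 2 weeks and 0.480, 0.558 and 1.24 at 5 weeks. Every treated library lay above every TAA library, most of all replicates 17, 18 and 28, where Srebf1 was low. For Me1 it was 0.524, 0.840 and 0.739 in TAA, 1.84, 1.95 and 1.04 at 2 weeks and 0.999, 0.901 and 2.63 at 5 weeks. Elovl6 gave 0.268, 0.222 and 0.237 in TAA, 0.558, 0.825 and 0.305 at 2 weeks and 0.308, 0.321 and 0.781 at 5 weeks.

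The geometric mean ratios were 1.96-fold (Acaca), 2.26-fold (Me1) and 2.15-fold (Elovl6) those of TAA at 2 weeks, and 1.63-fold, 1.94-fold and 1.76-fold at 5 weeks. Acly, which ran low beside Srebf1, gave 1.10-fold and 1.09-fold, with overlap. An exact two-sided permutation test of the mean log2 ratio gave p = 0.1 for each of the separated ratios, the smallest that 3 against 3 libraries allow, and 0.2 after Benjamini-Hochberg adjustment over 18 ratios, so no ratio passed.

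**Figure D4:**
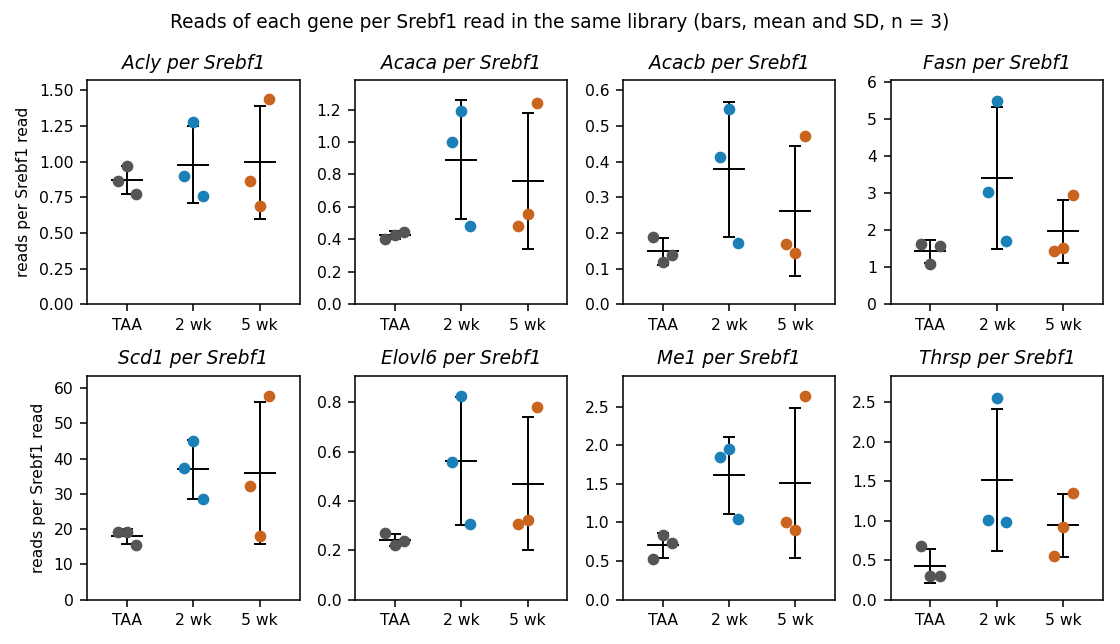
Reads of 8 genes per Srebf1 read in the same library (vertical axes, from 0), as points by group in replicate order with the mean and SD of each group of 3. For Acaca, Elovl6 and Me1 all 6 treated libraries lie above the 3 TAA libraries (Acaca 0.480 to 1.24 against 0.400 to 0.446), while Acly overlaps.

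Genes that bring sugar carbon and NADPH to the pathway, or regulate sugar use, included some that passed the test. Of 19 such genes 5 rose at 2 weeks, against 1.98% of all tested genes, 0 fell and 14 were not called. The median log2 change was 0.42, against -0.03 over all genes and 0.34 over the 12 hepatocyte markers. Khk, ketohexokinase, which commits fructose to breakdown, rose 2.19-fold, from 245.1 ± 31.28 to 536.0 ± 79.22 CPM (SD, n = 3, log2 change 1.13 ± 0.19, edgeR adjusted p = 0.0255). Gckr, a regulatory protein of liver sugar metabolism that does not itself supply carbon, rose 1.80-fold (edgeR adjusted p = 0.0377). Pklr, the liver pyruvate kinase and a target of ChREBP, rose 1.89-fold, from 89.09, 77.16 and 75.56 CPM to 127.1, 183.0 and 147.4 CPM (0.92 ± 0.20, adjusted p = 0.0408). Slc25a1, the mitochondrial carrier that exports the citrate Acly splits, rose 1.42-fold (0.51 ± 0.10, adjusted p = 0.0377). For these 4 genes all treated libraries lay above all TAA libraries, as they did for 17.3% of all tested genes.

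At 5 weeks 2 of the 19 rose, against 0.686% of all tested genes, 0 fell and 17 were not called. Their median was 0.34, against 0.01 over all genes and 0.28 over the hepatocyte markers. Pklr was at 173.8, 118.1 and 193.2 CPM, 2.01-fold TAA (1.00 ± 0.20, edgeR adjusted p = 0.0478). Slc2a2, the glucose transporter of hepatocytes, rose 2.17-fold, from 110.6 ± 13.06 to 239.5 ± 57.56 CPM (1.11 ± 0.18, adjusted p = 0.0361). Between 5 and 2 weeks edgeR called 0 of the 19, with 6 at an unadjusted p under 0.05 (23.2% of all genes) and 1 called by DESeq2 (5.35% of all genes).

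These calls depended on single libraries. All 5 at 2 weeks, and those of Nr0b2, Plin5 and Aadac given below, were lost without TAA replicate 13, TAA replicate 14, 2-week replicate 17 or 2-week replicate 18 (adjusted p from 0.0682 to 0.176). Without TAA replicate 12 all of them but Nr0b2 were lost (0.0746 to 0.0996), without 5-week replicate 28 all but Khk and Nr0b2 (0.0527 to 0.0729), and without 2-week replicate 19 those of Pklr, Slc25a1 and Aadac (0.0518 to 0.0616). The 2 calls at 5 weeks held only without replicate 27 among the 9 libraries left out in turn (adjusted p otherwise 0.0512 to 0.199). Their log2 changes stayed positive throughout, with lowest values of 1.00 for Khk, 0.77 for Pklr at 2 weeks and 0.90 for Slc2a2. With libraries scaled by totals alone Slc25a1 was at 0.17 (adjusted p = 0.215), Gckr at 0.52 (adjusted p = 0.0592) and Pklr at 0.60 (adjusted p = 0.0924) at 2 weeks, and Pklr at 0.80 (adjusted p = 0.0741) at 5 weeks. By limma on FPKM the same 3 genes were at 0.17, 0.50 and 0.56 at 2 weeks (adjusted p = 0.176, 0.0528 and 0.103). With only the groups compared in the fit, Pklr and Slc2a2 at 5 weeks had adjusted p = 0.0878 and 0.0854.

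**Figure D5:**
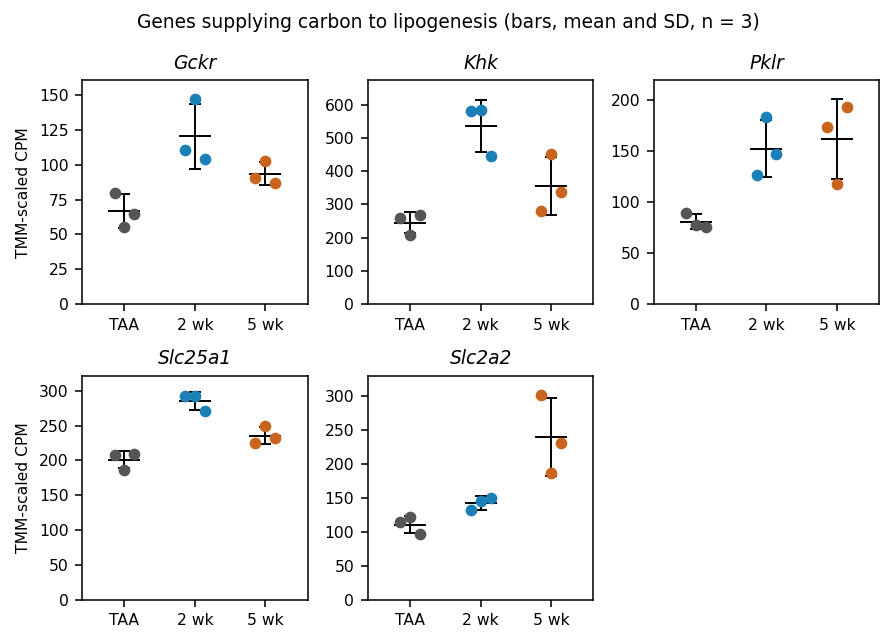
TMM-scaled CPM (vertical axes, from 0) of 5 genes from the list for sugar carbon and NADPH, as points by group in replicate order with the mean and SD of each group of 3. Gckr is a regulator and does not itself supply carbon. Khk, Gckr, Slc25a1 and Pklr at 2 weeks, and Pklr and Slc2a2 at 5 weeks (186.9 to 301.0 CPM against 96.00 to 121.2), lie wholly above TAA.

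Regulators of SREBP-1 and ChREBP gave 1 call. At 2 weeks 1 of 19 rose, against 1.98% of all tested genes, 0 fell and 18 were not called (median log2 change 0.07). Nr0b2 (SHP), a nuclear repressor induced by bile acids through FXR, rose 4.07-fold, from 27.68 ± 11.84 to 112.6 ± 41.92 CPM (2.02 ± 0.35, edgeR adjusted p = 0.0255). At 5 weeks it was at 41.43 ± 7.786 CPM, and no gene of the list was called by edgeR, with 3 at an unadjusted p under 0.05 (19.2% of all genes) and 1 called by DESeq2 (8.06% of all genes), and a median of 0.19. Usf2, a partner in E-box binding, had the lowest p there (0.32 ± 0.11, adjusted p = 0.151).

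Nr1h3 (LXR alpha), which induces Srebf1, lay between 104.5 and 109.9 CPM at 2 weeks, above the 83.38 to 84.97 of TAA (0.35 ± 0.10, edgeR adjusted p = 0.0854) and at 79.92 to 91.72 CPM at 5 weeks. Mlxipl was at 175.9 ± 28.19 and 169.2 ± 29.99 CPM at 2 and 5 weeks against 122.6 ± 54.37 CPM in TAA (0.52 ± 0.28 and 0.46 ± 0.28, adjusted p = 0.278 and 0.394). Scap, the escort of SREBP, was at 0.03 ± 0.13 and 0.27 ± 0.13 on the log2 scale. Insig2, which holds SREBP in the endoplasmic reticulum, was at 0.57 ± 0.24 and 0.07 ± 0.23, and Insig1 at -0.10 ± 0.34 and 0.19 ± 0.34. None of these passed. Mid1ip1, the relative of Thrsp, was at -0.40 ± 0.21 and -0.22 ± 0.21, and Srebf2, the relative of Srebf1 that drives cholesterol synthesis, at -0.38 ± 0.16 and -0.18 ± 0.16.

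Other steps of fat handling gave few calls. The counts for these lists stand beside the same shares of all genes: 23.4% at 2 weeks and 19.2% at 5 weeks had an unadjusted p under 0.05, and DESeq2 called 11.6% and 8.06%. Among 14 tested genes of elongation and desaturation edgeR called 0 at either time (3 and 3 at an unadjusted p under 0.05, and 0 and 1 called by DESeq2), with medians of 0.07 and 0.18. Elovl3 was at 57.55, 25.55 and 23.63 CPM at 2 weeks, with TAA between 7.394 and 9.343 (2.09 ± 0.73, adjusted p = 0.130), and at 31.06 CPM in 5-week replicate 23 against 3.536 and 4.963 CPM in 27 and 28. Fads3 was at 8.532 to 11.54 CPM at 5 weeks against 14.56 to 16.82 CPM (-0.64 ± 0.16, adjusted p = 0.0807). Scd2, the close relative of Scd1, was at 54.89 ± 13.76 CPM at 5 weeks against 84.76 ± 32.32 CPM (-0.63 ± 0.26, adjusted p = 0.225), of which TAA replicate 12 held 121.6 CPM. Scd3 and Scd4 were below the filter, at 1.222 CPM or less in every library. Reads from stretches that Scd1 shares with these relatives may be assigned to any of them. Of all 10 tested relatives of the lipogenic genes edgeR called 0 at 2 and at 5 weeks (3 and 2 at an unadjusted p under 0.05, and 0 and 0 called by DESeq2).

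Of 20 tested genes of fatty acid activation, triglyceride assembly and export, 0 were called by edgeR at 2 or 5 weeks, with medians of 0.18 and 0.37. An unadjusted p under 0.05 was reached by 6 and 7, against 23.4% and 19.2% of all genes. DESeq2 called 0 and 3, against 11.6% and 8.06% of all genes. Agpat2, an acyltransferase of triglyceride assembly, ranged from 273.9 to 346.5 CPM at 2 weeks, where TAA ranged from 213.5 to 240.3 (0.51 ± 0.17, adjusted p = 0.117). Lpin2, a phosphatidate phosphatase, was at 206.1 to 374.0 CPM at 5 weeks against 68.60 to 177.9 CPM (1.38 ± 0.33, adjusted p = 0.0698).

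Among 19 lipid droplet and lipolysis genes 2 rose at 2 weeks, against 1.98% of all tested genes, 0 fell and 17 were not called (median 0.26). Plin5, a droplet coat protein of oxidative tissue, rose 1.81-fold (0.86 ± 0.18, edgeR adjusted p = 0.0393), and Aadac, a microsomal lipase-like enzyme, 1.44-fold (0.53 ± 0.11, adjusted p = 0.0367). With libraries scaled by totals Plin5 was at 0.51 (adjusted p = 0.0888) and Aadac at 0.20 (adjusted p = 0.184), and with the length trend removed they were at 0.75 (adjusted p = 0.0503) and 0.29 (adjusted p = 0.183). By limma on FPKM they were at 0.53 (adjusted p = 0.0698) and 0.19 (adjusted p = 0.204). At 5 weeks edgeR called 0 (8 at an unadjusted p under 0.05 and 4 by DESeq2, against 19.2% and 8.06% of all genes), with Lipe, hormone-sensitive lipase, nearest at 0.60 ± 0.13 (adjusted p = 0.0567). Pnpla2, the main triglyceride lipase and a relative of Pnpla3, was at 104.0 ± 15.11 CPM against 72.98 ± 8.564 CPM (0.51 ± 0.18, edgeR adjusted p = 0.170). It lay above TAA in 3 of 3 libraries, as did 1706 of 14731 tested genes, where Pnpla3 lay below.

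For insulin signalling and AMP-activated kinase subunits, which restrain the carboxylases, edgeR called 0 of 16 at 2 and at 5 weeks, with medians of -0.08 and 0.15. Of the 16, 2 and 5 had an unadjusted p under 0.05, against 23.4% and 19.2% of all genes. DESeq2 called 0 and 2, against 11.6% and 8.06% of all genes. Prkaa2, a catalytic subunit of that kinase, was at 45.95 to 67.65 CPM at 5 weeks against 30.38 to 38.18 CPM (0.73 ± 0.17, adjusted p = 0.0694). Prkab2, a scaffold subunit, was at 1.394 to 2.154 CPM at 2 weeks against 2.454 to 4.333 CPM (-0.82 ± 0.29, adjusted p = 0.135).

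Fat cells also express lipogenic genes, so their markers were read beside them. Of 10 fat cell markers, Lep and Retn were at 0 in every library, Adipoq reached at most 0.088 CPM and Plin1 at most 0.227 CPM. The 3 markers that passed the filter (Pde3b, Fabp4 and Lipe) are also expressed by other cells. The summed level of the list was 63.9 to 80.2 CPM in 8 libraries and 123 CPM in replicate 23, of which Pde3b made up 93.51 CPM. The summed level of 12 hepatocyte markers was 105273 to 120855 CPM in TAA, 119516 to 162250 CPM at 2 weeks and 114898 to 159353 CPM at 5 weeks, highest in replicates 17, 18 and 27. Most of that sum was 1 gene, Alb (80220 to 119800 CPM). Taken gene by gene, 11 of the 12 had estimates above 0 at 2 weeks and 10 at 5 weeks, with median log2 changes of 0.34 and 0.28. Bile duct markers summed to 277 to 554 CPM in 8 libraries and to 113 CPM in replicate 23. Here too 1 gene, Spp1, made up most of the sum, with 239.3 to 475.9 CPM in the 8 libraries and 102.1 CPM in replicate 23. Macrophage markers summed to 599 to 652 CPM in TAA, 475 to 728 CPM at 2 weeks and 367 to 478 CPM at 5 weeks. Of 9 such markers edgeR called 2 at 2 weeks, against 3.31% of all tested genes, and 7 were not called. The 2 are named here after their values were seen: Gpnmb fell (-1.70 ± 0.25, edgeR adjusted p = 0.0240) and Clec4f rose (0.85 ± 0.18, adjusted p = 0.0411). Neither call was checked with single libraries left out. The part of these cell types in the values of the lipogenic genes was not tested.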

How the data were processed

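RNA of 9 mouse liver samples was sequenced. Per the submitters' processing notes, the tools were FastQC 0.11.7, HISAT2 2.1.0 and StringTie 1.3.4d on mm10. The step that made the counts is not given in the sources used here. The authors deposited estimated counts, already whole numbers, and FPKM, in a table per gene, used here for levels and tests, and a table per transcript, used for lengths, starts and variant shares. Genes passing edgeR's filterByExpr (minimum count 10, minimum total 15) were scaled by TMM and tested in 1 fit of all 9 libraries and 3 groups by the quasi-likelihood test of edgeR 4.0.16 (R 4.3.3), p-values being adjusted by Benjamini-Hochberg across 14731 genes, with a threshold of 0.05. Alternatives were library totals, upper quartile scaling, DESeq2 1.42.0, limma 3.58.1 on log2(FPKM + 1), no filter, only the groups compared, removal of the length trend (lowess span 0.3) and leaving out libraries. On simulated counts the test recovered 47% of 2-fold and 94% of 4-fold changes at 2 weeks (14608 genes), with 9 false calls among 150. At 5 weeks these were 52% and 94% (14600 genes), with 11 false calls among 157. The simulated counts were drawn separately for each gene with no trend over transcript length, unlike the data, so these rates may not carry over. The 10 genes and all lists were chosen with earlier results of these data known. Genes named are the 10, a panel of 10 others and, per list and comparison, up to 4 called genes or the one with the lowest p, of which those at 2 and 5 weeks against TAA are given. Motifs and read ratios were chosen after the data were seen. Some genes that the rule names are not reported here.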

Additional observations from a re-analysis of the deposited data

How the results depend on the processing

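Pnpla3 had the fewest reads of the 10 genes, 112 to 610 per library. On counts simulated at the library sizes of these data with 3 libraries per group, the test recovered 47% of 2-fold changes at 2 weeks and 52% at 5 weeks. Those changes were placed in genes drawn from across the expressed genes, so the rates are averages and do not give the recovery for Pnpla3 or any other single gene. The separate parts of depth and of the number of libraries in the calls were not tested. Over all genes, calls at 2 weeks numbered 488 (291 higher, 197 lower), and 1722 with library totals (110 higher, 1612 lower), 1713 by DESeq2, 1983 by limma on FPKM, 1023 with only the groups compared and 1 to 1095 with single libraries left out. Calls at 5 weeks numbered 190, and 504 with totals, 77 with upper quartile scaling, 1188 by DESeq2, 105 without a filter, 1001 by limma, 1 with only the groups compared, 590 with the length trend removed and 0 to 240 with single libraries left out. Between 5 and 2 weeks there were 3, and 788 by DESeq2, 5 by limma, 0 with only the groups compared, 6 with the length trend removed and 1 to 1889 with single libraries left out. After seeing the data, replicates 17, 18 and 23 were left out together (12, 7 and 5 calls in the 3 comparisons), and replicates 12 and 18 (1 call in each). Of the 10 genes, 1 was called at 2 weeks with the length trend removed, 1 at 5 weeks by DESeq2 and 0 to 1 in each comparison with TAA with single libraries left out. The cause of these shifts was not tested.

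Signs turned only for estimates that had not passed. At 2 weeks Acaca was -0.03 with totals and -0.04 by limma, and Pnpla3 was 0.14 with the length trend removed, 0.01 without replicates 12 and 18, and -0.29 to 0.18 with single libraries left out. At 5 weeks Acacb was -0.09 with totals, -0.05 by limma and -0.13 to 0.57 with single libraries left out, and Fasn was 0.20 without replicates 12 and 18 and -0.38 to 0.19 with single libraries left out. Between 5 and 2 weeks Acaca was 0.04 with totals, 0.05 by limma, 0.03 without replicates 17, 18 and 23 and 0.08 without 12 and 18. Elovl6 was 0.03 by limma and 0.13 without 12 and 18. Me1 was -0.03 with upper quartile scaling. With the length trend removed Acly was -0.00, Scd1 -0.16 and Me1 -0.08. Without replicates 17, 18 and 23 Srebf1 was -0.69, Acly -0.37, Scd1 -0.54 and Me1 -0.17. With single libraries left out, that comparison gave -0.10 to 0.64 for Srebf1, -0.08 to 0.36 for Acly, -0.16 to 0.09 for Acaca, -0.25 to 0.35 for Scd1, -0.27 to 0.14 for Elovl6 and -0.09 to 0.17 for Me1. No paired analysis was possible because the groups share no replicate number.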
